A study of Arabidopsis thaliana with 36 samples.

Results

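The responses to salt of 2 cell populations of the Arabidopsis thaliana root, the columella of the root cap and the stele, were compared as a difference of changes: the change of log2(signal + 16) with salt in columella minus the same change in stele. A positive difference means that the change in columella lay above that in stele, and a negative one that it lay below. All 22746 non-control probe sets of the ATH1 array entered, of which 13513 name exactly 1 gene, and 12 of the 36 arrays of the series belong to the 4 groups compared. Columella cells came from the GFP reporter line PET111 and stele cells from WOL::GFP, both in ecotype Columbia, and roots of seedlings 6 days old were used. The salt groups spent 1 h on medium with 140 mM NaCl before the cell walls were digested, and the standard groups stayed on standard medium, with 3 arrays in each group. Cells of all 4 groups were freed from their walls and sorted by fluorescence, and their RNA was amplified in a two-cycle protocol, so these steps are shared by controls and treated cells. Each population is defined only by where its reporter is active. The replicates carry numbers only, and no label says whether they were grown separately, so the p-values cover a spread among arrays that could be technical.

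The columella is the central part of the root cap, which covers the root tip, senses gravity and meets the soil first; its cells are shed from the tip. The stele is the innermost cylinder of the root, which holds the xylem, the phloem, the procambium and the pericycle, the layer in which lateral roots begin. Salt lowers the water potential outside the cell and brings in sodium ions. The hormone abscisic acid and calcium signals then raise protective proteins, among them dehydrins and other late embryogenesis abundant (LEA) proteins. Auxin, a growth hormone, acts through transcription factors of the LBD and Aux/IAA families, and GH3 enzymes inactivate it by attaching amino acids.

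The labelled populations were checked against marker genes, of which 10 of 38 had a probe set with 1 gene. The root cap marker AT1G65570 gave a signal of 3619 to 10258 on the 6 columella arrays and of 2.15 to 220 on the 6 stele arrays. Of the 16 stele markers LHW, OPS and PHV were measured. Their summed signal on standard medium was 601 to 901 in columella and 949 to 1047 in stele. With salt it was 264 to 414 in columella and 554 to 746 in stele. The sum thus separated the populations on each medium, but not over both media together. Of the 3, only LHW differed by a call, with salt (columella minus stele -1.35, limma adjusted p = 0.00895). The summed signal of the root hair expansin genes EXPA7 and EXPA18, markers of the epidermis, was 2213 on stele standard replicate 3 and 1371 on stele salt replicate 3. On the other 4 stele arrays it was 62.8 to 212, and in columella 44.0 to 325; the part of this in the results was not tested. The markers of the cortex summed to 16.9 to 119 and those of endodermis and quiescent centre to 66.2 to 295 over the 12 arrays. In such sorted bulk samples, fewer cells of a type and less RNA per cell cannot be told apart.

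Replicate 3 differed from the other numbers in how many probe sets changed. Between the salt and standard arrays of the same number, 23.8% of probe sets in columella differed at least 2-fold for replicate 1, 26.0% for replicate 2 and 6.11% for replicate 3. In stele the shares were 26.8%, 28.1% and 9.32%. Columella salt replicate 3 correlated at r = 0.966 with columella standard replicate 3 and at 0.928 and 0.939 with the other columella salt arrays, over probe sets. In stele the order was the opposite, with salt replicate 3 at r = 0.952 with standard replicate 3 and at 0.963 and 0.964 with the other stele salt arrays. Results are therefore given with all arrays and, where they rest on it, without replicate 3 of every group, an alternative chosen after these values were seen. The 5'/3' ratio of the GAPDH control, which falls with incomplete copying, was 0.173 ± 0.112 (SD, n = 3) on standard medium and 0.142 ± 0.0803 with salt in columella, and 0.239 ± 0.0124 and 0.226 ± 0.0452 in stele. The ratio of the ubiquitin control was higher with salt, going from 0.197 ± 0.0310 (range 0.174 to 0.232) to 0.317 ± 0.0317 (0.287 to 0.35) in stele, with no overlap, and from 0.229 ± 0.0534 to 0.297 ± 0.0411 in columella, with overlap. The actin control was 0.0720 ± 0.0333 and 0.0450 ± 0.00409 in columella and 0.0355 ± 0.0182 and 0.0271 ± 0.00725 in stele. The part of these ratios in the results was not tested beyond a fit with the GAPDH ratio as covariate, which called 18 differences higher and 139 lower in columella. Array medians were 65.1 to 95.6, and the number of arrays limits the precision.

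More probe sets were called in one direction in both populations than were called for the difference between them. The difference has a larger standard error than either response, for the gene LEA4-5 0.59 log2 units against 0.41. Its smaller count therefore does not show that the responses are equal. In columella 9.92% of the probe sets tested changed with salt (adjusted p under 0.05 in limma): 856 rose (3.76%) and 1401 fell (6.16%). In stele 19.0% changed: 1942 rose (8.54%) and 2369 fell (10.4%). The difference itself was called for 83 probe sets, 0.365% of those tested. Of these, 11 lay higher in columella (0.0484%) and 72 lower (0.317%), and 2280 probe sets had an unadjusted p under 0.05. Across all probe sets the 2 responses, which share no array, correlated at r = 0.62, a description over probe sets that are not independent.

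The number of called differences depended on replicate 3. Without it in every group, 1314 probe sets were called (5.78%), 296 higher (1.3%) and 1018 lower (4.48%) in columella, and 80 of the 83 were among them. The columella response then had 1884 rises (8.28%) and 4212 falls (18.5%), and the stele response 2869 rises (12.6%) and 4244 falls (18.7%). Without replicate 1 limma called 0 differences, with 925 probe sets at an unadjusted p under 0.05, and without replicate 2 it called 2, with 908 at that level. When the spread was estimated from the 12 arrays alone, 20 were called, of which 18 were among the 83. Over all probe sets the median change was -0.20 in columella and -0.23 in stele on the log2 scale, and 0.01 for the difference. Quantile normalization brought these to -0.01, -0.09 and 0.06 and raised the share of calls that rose from 37.9% to 57.3% in columella and from 45.0% to 55.3% in stele.

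**Figure D1:**
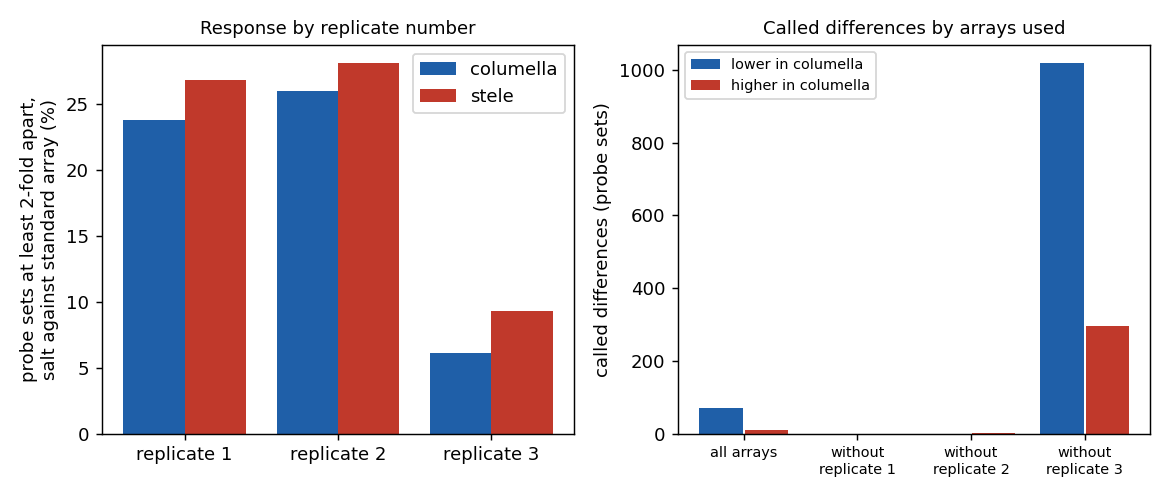
Left, percent of probe sets at least 2-fold apart between the salt and the standard array of the same replicate number, for columella (blue) and stele (red); right, number of probe sets called for the difference with all arrays and without 1 replicate number in every group. Replicate 3 shows the smallest share in both populations (6.11% and 9.32%), and the lower calls go from 72 with all arrays to 1018 without it.

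Many genes rose in both populations. In all, 583 probe sets rose in columella and in stele (2.56% of those tested), which is 68.1% of the columella rises and 30.0% of the stele rises. Their median rise was 1.52 in columella and 1.77 in stele on the log2 scale, and 471 of them rose at least 2-fold in both. A called difference was found for 4 of the 583, each lower in columella, and 66 had an unadjusted p under 0.05 (57 lower, 9 higher). This does not make the other rises equal: the 95% interval of the difference lay within 1 log2 unit of 0 for 101 of the 583 (17.3%), against 23.5% of all probe sets.

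LEA4-5, a late embryogenesis abundant protein gene, had the largest change of the named shared rises. Its signal was 70.2, 43.8 and 19.8 in columella on standard medium and 1209, 1351 and 628 with salt. In stele it was 16.9, 17.2 and 63.6 on standard medium and 1750, 1923 and 1093 with salt. The lowest salt array in each population lay far above the highest standard array. The rise was 4.17 ± 0.41 (SE) log2 units in columella (limma adjusted p = 1.08e-07) and 5.14 ± 0.41 in stele (1.32e-09). The difference of -0.97 had a 95% interval from -2.17 to 0.23 and was not called (adjusted p = 0.636), while without replicate 3 of every group it was -1.64 (adjusted p = 0.0445).

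LTI30, which encodes a dehydrin, rose to similar signals. Columella had 777, 424 and 760 on standard medium and 9536, 10537 and 5061 with salt, and stele had 569, 706 and 1805 followed by 8866, 9024 and 6792. Salt and standard arrays did not overlap in either population, and replicate 3 was the lowest salt array in both. The rise was 3.63 ± 0.38 in columella and 3.16 ± 0.38 in stele (limma adjusted p = 3.71e-07 and 1.57e-06), with a difference of 0.47 (95% interval -0.64 to 1.58). COR47, a dehydrin gene of the cold and drought response, was already high in columella on standard medium, at 12418, 13964 and 7841, against 4980, 5025 and 6014 in stele. With salt it reached 16767, 15384 and 9453 in columella, which overlaps the standard arrays, and 11442, 11382 and 8432 in stele, which does not. Its change was 0.28 in columella (adjusted p = 0.621) and 0.95 in stele (adjusted p = 0.0386), and the difference of -0.67 (95% interval -1.61 to 0.27) was not called. After quantile normalization the difference was called, at -1.16 (limma adjusted p = 0.0488).

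Further shared rises, for which the annotation used here gives a locus name and no function, were AT1G04560 (3.71 in columella and 3.96 in stele on the log2 scale), AT3G55720 (3.81 and 3.66), AT3G17520 (3.52 and 3.54) and AT3G17110 (3.36 and 3.68). AT3G12510 rose by 2.84 in columella and 2.86 in stele, and AT3G02480 by 3.01 and 5.00. Replicate 3 differed clearly in AT5G01380, whose columella signal went from 50.9, 25.8 and 98.5 to 1785, 2515 and 97.4. Replicate 3 thus stayed level there, while the salt arrays of replicates 1 and 2 lay far above their standard arrays. The gene rose by 3.55 ± 0.75 in columella and 3.47 ± 0.75 in stele, and by 5.34 and 4.36 without replicate 3. AT5G16010 had the same shape, with 3935 and 4013 on columella salt replicates 1 and 2 and 322 on replicate 3.

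Probe sets that fell in both populations had closer median changes than the shared rises, and smaller ones. There were 525 such probe sets (2.31% of those tested), 37.5% of the columella falls and 22.2% of the stele falls, with a median fall of -1.17 in columella and -1.14 in stele. In limma 0 of the 525 had a called difference and 8 had an unadjusted p under 0.05. The 95% interval of the difference lay within 1 log2 unit of 0 for 181 of them (34.5%), in a set with smaller changes than the shared rises. After quantile normalization 265 probe sets fell in both populations and 592 rose in both. PPR596, which encodes a pentatricopeptide repeat protein of the kind that binds organelle RNA, had signals of 277, 336 and 272 in columella on standard medium and 50.8, 48.2 and 110 with salt. In stele its signals were 1810, 1985 and 743, then 336, 216 and 348. Salt arrays lay below standard arrays throughout, by -1.93 ± 0.43 in columella and -2.18 ± 0.43 in stele (limma adjusted p = 0.00425 and 0.00071). The other falls named by the same ranking were AT5G02550 (-2.37 and -2.14), AT5G67510 (-2.30 and -1.93), AT1G78260 (-1.90 and -2.06), AT3G57490 (-1.86 and -2.00), AT2G37600 (-1.72 and -1.81), AT3G19680 (-1.69 and -1.79) and AT1G66250 (-1.79 and -1.69).

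**Figure D2:**
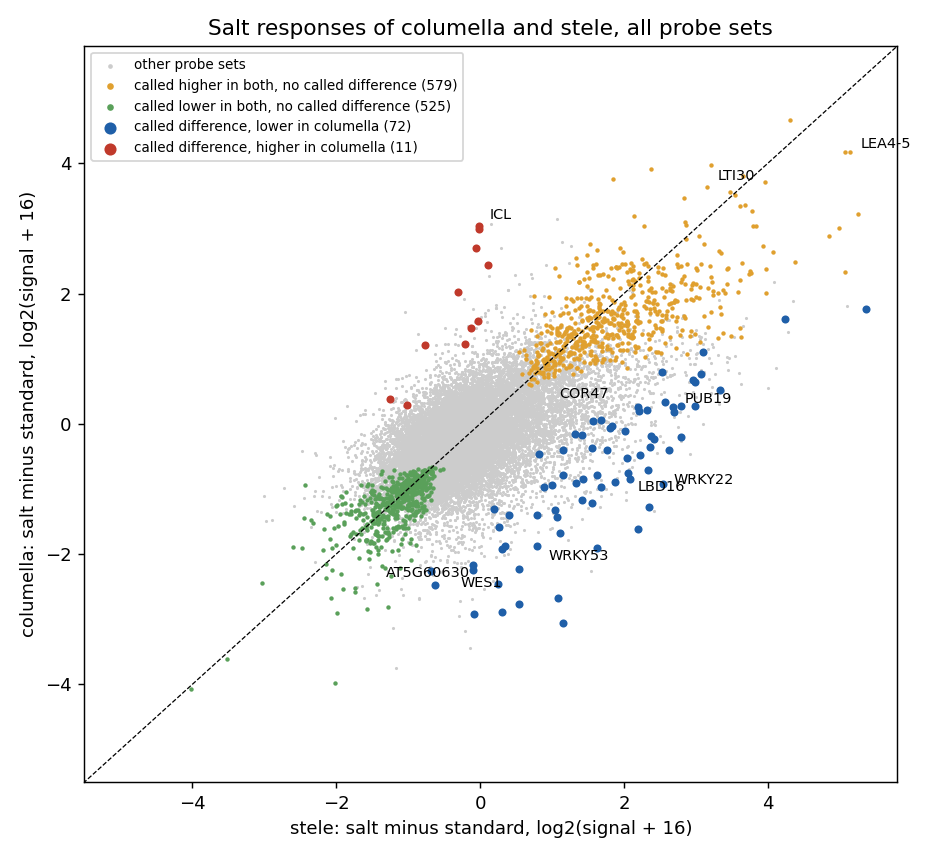
Change with salt in stele (x axis) against columella (y axis), log2(signal + 16), 1 point per probe set; the dashed line marks equal changes. Shared rises without a called difference are orange (579), shared falls green (525), called differences blue (72 lower in columella) and red (11 higher); the blue points lie below the dashed line and ICL lies at a columella change of 3.03 and a stele change of -0.01.

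The 83 called differences fell into 7 combinations of calls. Of the 72 that lay lower in columella, 43 rose in stele with no call in columella, 18 fell in columella with no call in stele, 7 fell in columella and rose in stele, and 4 rose in both, less in columella. Of the 11 that lay higher, 8 rose in columella with no call in stele, 2 fell in stele with no call in columella, and 1 rose in columella and fell in stele. A missing call in 1 population is not a finding about that population; the called difference is. Exactly 1 gene was named for 41 of the 83, namely 35 lower and 6 higher. All 41 are described below, more than the naming rule gives, and in all 41 the difference had one sign in the 3 replicate numbers, on the data that chose them. All 41 were also called without replicate 3 of every group, a refit chosen after the values were seen that called 1314 probe sets. Without replicate 1 of every group 0 of the 83 kept their call, and without replicate 2 of every group 2 did. In the 12 refits that each leave out 1 array, the calls of WES1, AT5G60630, AT5G14700, AT4G11350, AT5G57300 and ICL held throughout, while 20 of the 41 were called in 4 refits or fewer. With the spread of the 12 arrays alone, AT4G11350 and AT5G57300 lost their call (limma adjusted p = 0.101 and 0.092). So did LBD16, PUB19, WRKY53 and AT3G53980 (0.141, 0.101, 0.215 and 0.224).

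The largest class rose in stele without a called rise in columella, and 20 of its 43 probe sets name 1 gene. WRKY22, a transcription factor gene of the innate immune response, had signals of 121, 54.6 and 150 in stele on standard medium and of 671, 867 and 508 with salt. In columella it had 1882, 780 and 1063 on standard medium and 590, 450 and 823 with salt. The stele arrays separated fully, and the columella arrays overlapped. The change was 2.54 ± 0.48 in stele (limma adjusted p = 0.000503) and -0.93 ± 0.48 in columella (0.218), a difference of -3.47 ± 0.68 (0.0142).

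LBD16 encodes a transcription factor that auxin induces in the pericycle and that acts in the start of lateral roots. Its stele signals were 142, 81.3 and 207 on standard medium and 482, 676 and 708 with salt, and its columella signals were 313, 119 and 178, then 68.9, 83.0 and 199. Only the stele arrays separated. The change was 2.06 ± 0.40 in stele and -0.75 ± 0.40 in columella, and the difference of -2.81 ± 0.57 was called (limma adjusted p = 0.0154). On standard medium its level did not differ by a call between the populations (columella minus stele 0.44, adjusted p = 0.494), and with salt it lay lower in columella by -2.37 (adjusted p = 6.51e-05).

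PUB19, a U-box E3 ubiquitin ligase gene whose product dampens abscisic acid and drought responses, differed in its standard level. Columella had 4430, 3415 and 2827 on standard medium and 4433, 3959 and 4174 with salt. Stele had 418, 326 and 914 on standard medium and 3456, 3105 and 3384 with salt. Stele with salt thus lay within the range of columella on standard medium and below every columella array with salt. The change was 2.69 ± 0.33 in stele and 0.26 ± 0.33 in columella, and the difference of -2.43 ± 0.47 was called (limma adjusted p = 0.0119). AT5G18470 (difference -2.72 ± 0.52), AT5G14700 (-2.57 ± 0.39) and AT5G14730 (-2.02 ± 0.38) also rose in stele from a lower standard level. In these 3 genes the stele arrays with salt stayed below every columella array, and columella was still called higher with salt, by 1.81, 1.27 and 0.83 log2 units (limma adjusted p = 0.000683, 0.00148 and 0.0316). For AT5G14700 the columella signals were 1581, 1278 and 1590 on standard medium and 1168, 1269 and 1445 with salt, and the stele signals were 68.1, 70.4 and 141, then 514, 523 and 542. Columella was above stele on every array of AT5G14700, and the gap was smaller with salt.

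Cell wall and ubiquitin genes were also in this class. XTH20, which encodes an enzyme that cuts and rejoins xyloglucan in the wall, had stele signals of 64.3, 56.0 and 122, then 367, 363 and 203 with salt. Its columella signals of 90.2, 39.0 and 52.2 on standard medium overlapped the 66.7, 28.9 and 30.2 with salt. The difference was -2.18 ± 0.48 (limma adjusted p = 0.0365). ATL63, a gene of the ATL family of RING-type ubiquitin ligases, changed by 1.43 in stele and -0.85 in columella (adjusted p = 0.00669 and 0.129). LCR69, which encodes a small cysteine-rich protein of the plant defensin family, changed by 1.33 in stele and -0.90 in columella (adjusted p = 0.00729 and 0.0851). TRM24, of a family that recruits the microtubule-organising protein TON1, had stele signals of 4.50, 4.08 and 3.04 on standard medium and 50.2, 65.3 and 47.1 with salt. For TRM24 the standard signals were below the 40th percentile of signals on each array (39.2 to 64.6), so background and the offset set the size of its fold.

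The remaining genes of the class carry locus names. AT4G33420 (difference -3.80 ± 0.87), AT5G43180 (-3.02 ± 0.65) and AT1G55240 (-2.65 ± 0.61) had the largest differences. AT4G18340 (-2.41), AT1G11330 (-2.11), AT1G61890 (-1.93), AT5G46710 (-1.58), AT2G03240 (-1.55), AT2G14520 (-1.48) and AT4G38900 (-1.28) followed. AT4G38900 is the bZIP29 transcription factor gene by its RefSeq synonym. For AT5G43180 the stele signals rose from 111, 65.1 and 263 to 740, 924 and 929, and the columella signals were 117, 70.6 and 272 on standard medium and 62.7, 70.3 and 199 with salt. The 2 populations thus started at like signals and differed with salt only.

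**Figure D3:**
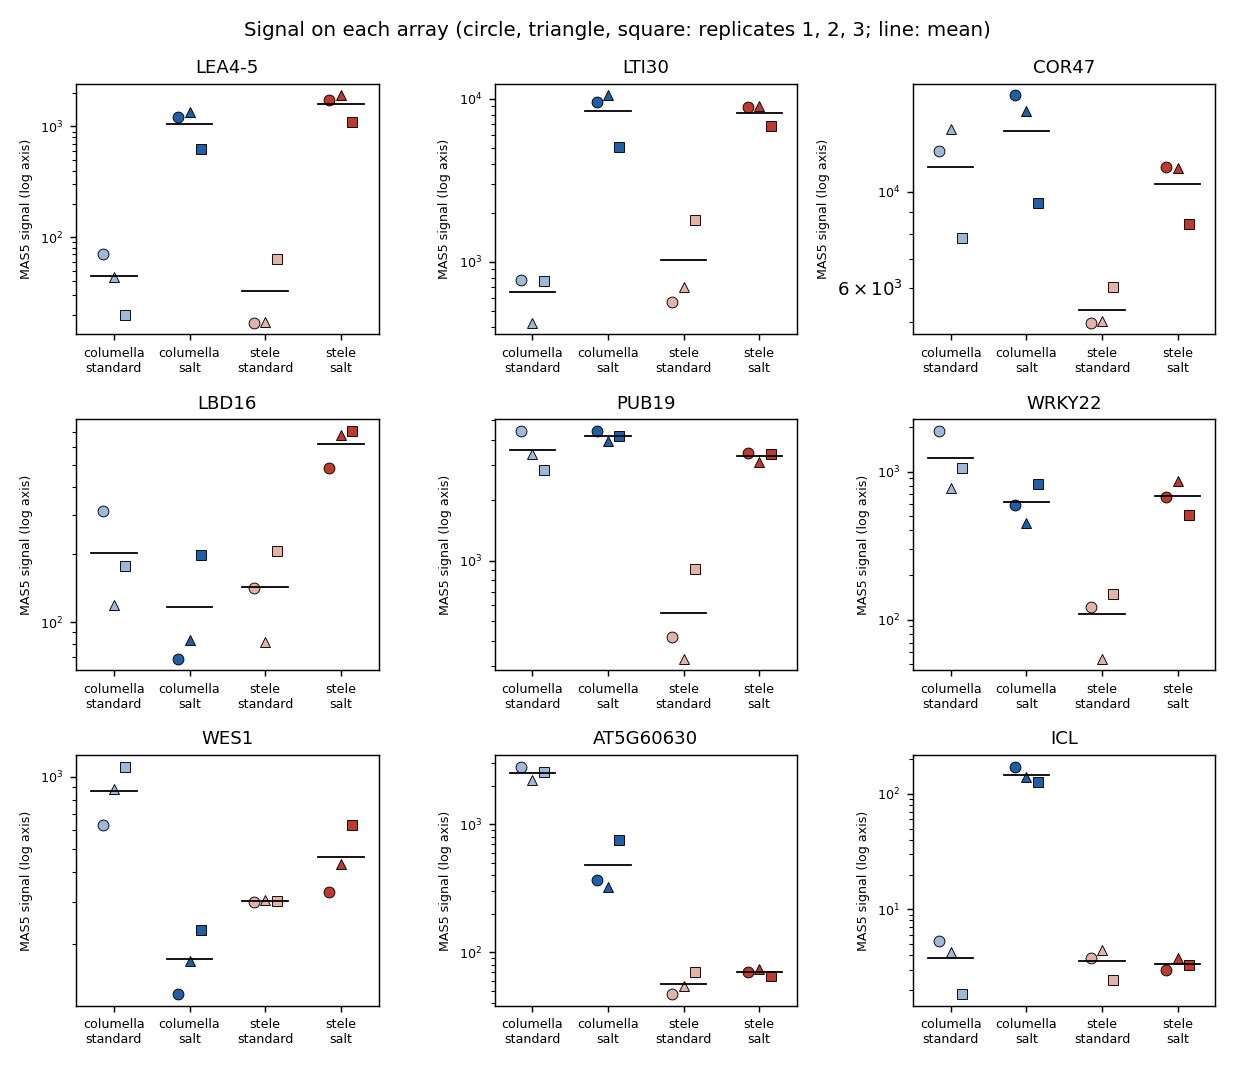
Signal of 9 genes on each of the 12 arrays (log axis), by group; circles, triangles and squares are replicates 1, 2 and 3 and the line is the group mean of 3 arrays. LEA4-5 and LTI30 rise in both populations, LBD16, PUB19 and WRKY22 have separate salt and standard arrays in stele only, WES1 and AT5G60630 are lower with salt in columella, and only columella salt shows ICL above 100.

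Genes that fell in columella with no called change in stele made up the next class, 18 probe sets of which 12 name 1 gene. WES1, also known as GH3.5, encodes an enzyme that attaches amino acids to auxin and also to salicylic acid. Its columella signals were 630, 891 and 1099 on standard medium and 123, 169 and 229 with salt. In stele they were 298, 305 and 303, then 328, 429 and 627. Columella arrays with salt lay below every other array, and in stele the salt arrays lay slightly above the standard arrays. The change was -2.23 ± 0.32 in columella (limma adjusted p = 5.32e-05) and 0.54 ± 0.32 in stele (0.244), a difference of -2.77 ± 0.46 (0.00388). On standard medium WES1 was higher in columella by 1.45 (adjusted p = 0.00138), and with salt it was lower by -1.32 (adjusted p = 0.00411).

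WRKY53, a transcription factor gene known from leaf senescence and defence, had columella signals of 418, 184 and 267 on standard medium and 49.4, 42.4 and 117 with salt. Its stele signals were 47.6, 39.6 and 159, then 90.8, 117 and 211. Columella separated and stele overlapped. The difference was -2.66 ± 0.59 (limma adjusted p = 0.0365).

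AT5G60630, like WES1, kept its call in all 12 refits. Columella had 2829, 2230 and 2566 on standard medium and 366, 325 and 752 with salt, and stele had 46.9, 54.4 and 69.7, then 70.3, 74.7 and 65.6. The transcript was thus high in columella and low in stele, and columella stayed above stele with salt. The difference was -2.70 ± 0.42 (limma adjusted p = 0.00218).

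AT3G53980 had the largest difference of all, -4.20 ± 0.84 (limma adjusted p = 0.0142), and rested on unequal arrays. Its columella signals were 3200, 1255 and 3877 on standard medium and 138, 101 and 1542 with salt, and its stele signals were 1598, 1812 and 4070, then 5269, 5647 and 4424. Columella salt replicate 3 lay within the standard range, and without replicate 3 of every group the difference was -5.58 (adjusted p = 2.71e-05).

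Several of these falls began from transcripts near background in stele, where a fall could hardly be seen. AT1G48070 had 2457, 1457 and 2543 in columella on standard medium, 185, 145 and 646 with salt, and at most 2.64 on any stele array. AT1G50720 (difference -3.20 ± 0.60), AT4G26790 (-2.14 ± 0.49) and AT5G26200 (-2.07 ± 0.45) also had stele signals under the 40th percentile on all 6 stele arrays. For these genes the called difference is a fall in columella beside a signal near background in stele. The class also held AT3G63240 (-2.22), AT3G15760 (-2.19), AT5G48130 (-1.84) and AT1G53035 (-1.80), which stood above that percentile on some or all stele arrays.

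Opposite changes, each called in its own population, were found for 8 probe sets (0.0352% of those tested), 4 of which name 1 gene. AT4G11350 had columella signals of 1225, 1559 and 826 on standard medium and 657, 586 and 787 with salt. In stele it had 110, 174 and 108, then 303, 288 and 318. No salt array overlapped a standard array, although columella replicate 3 came close. It changed by -0.78 ± 0.23 in columella and 1.15 ± 0.23 in stele (limma adjusted p = 0.0295 and 0.000871), a difference of -1.93 ± 0.33 (0.00433). AT1G03820 changed by -1.32 in columella and 1.04 in stele, and AT2G18670 by -0.96 and 0.89. AT5G57300 went the other way, from 156, 150 and 134 to 360, 332 and 385 in columella and from 478, 435 and 242 to 209, 184 and 249 in stele. Its columella arrays separated and its stele arrays overlapped at replicate 3. The difference was 1.96 ± 0.37 (limma adjusted p = 0.0109). Without replicate 3 of every group, 145 probe sets had opposite changes.

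Rises in columella without a called change in stele were few, with 8 probe sets of which 4 name 1 gene. ICL encodes isocitrate lyase, an enzyme of the glyoxylate cycle, by which stored fat is turned into sugar in seedlings. Its columella signals were 5.31, 4.26 and 1.83 on standard medium and 172, 141 and 127 with salt. In stele they were 3.82, 4.41 and 2.43, then 2.97, 3.78 and 3.30. ICL thus stood above background on the 3 columella salt arrays alone, replicate 3 included. The change was 3.03 ± 0.22 in columella (limma adjusted p = 3.51e-10) and -0.01 ± 0.22 in stele (0.973), and the difference of 3.05 ± 0.31 (1.66e-06) had the smallest adjusted p of the 41 genes. Since the low signals lie near background, the size follows the offset: the difference was 4.32 with an offset of 4 and 1.63 with an offset of 64. Elsewhere in the series, ICL changed by 1.01 in epidermis (adjusted p = 0.00102) and by -1.78 in cortex (adjusted p = 1.04e-06).

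The other genes that lay higher in columella had smaller differences. AT3G19910 had columella signals of 770, 712 and 667, then 2033, 2099 and 1147 with salt, and a difference of 1.44 ± 0.33. AT4G14930 had 238, 296 and 204, then 969, 566 and 626 in columella, and a difference of 1.59 ± 0.37. Both had overlapping salt and standard arrays in stele. AT1G23910 (1.61 ± 0.32) and AT2G04580 (1.65 ± 0.36), which fell in stele by -1.26, lie at low signals where folds depend on the offset. A probe set without a gene name in the annotation used here had a pattern like that of ICL, with 6.19, 7.58 and 3.21, then 178, 250 and 81.5 in columella and at most 5.49 in stele (difference 3.01). Another had a difference of 2.77.

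**Figure D4:**
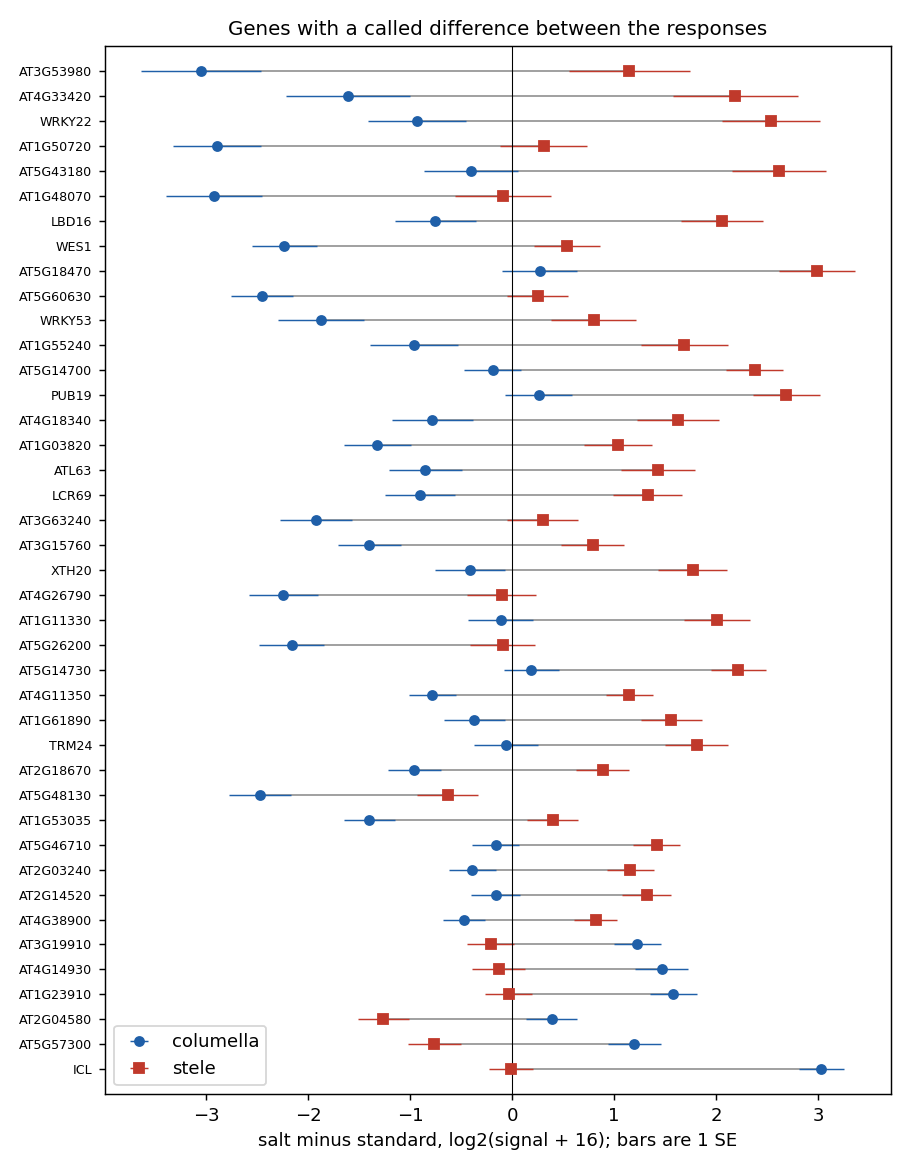
Change with salt, log2(signal + 16), in columella (blue circles) and stele (red squares) for the 41 genes with a called difference, ordered by the difference; bars are 1 SE from the fit. The upper 35 genes have columella to the left of stele, from AT3G53980 (-4.20) to AT4G38900 (-1.28), and the lower 6 have it to the right, up to ICL (3.05).

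The levels behind the differences were then described. Of the 72 probe sets that lay lower in columella, 44 (61.1%) were called higher in columella than in stele on standard medium and the other 28 had no call, where 11.1% of all probe sets were called higher. With salt 13 of the 72 were called higher in columella, 34 lower and 25 neither. All of the 25 with no call under salt had been higher in columella on standard medium. PUB19 was one of these, with columella minus stele at 2.76 on standard medium (adjusted p = 2.08e-07) and 0.34 with salt (adjusted p = 0.570), and WRKY22 was another, at 3.33 and -0.14. LBD16, AT5G43180, XTH20 and LCR69 were of the other kind, with no called gap on standard medium and a lower level in columella with salt. Of the 11 probe sets that lay higher, 8 were higher in columella with salt and 4 had been lower on standard medium. The standard arrays enter both the gap and the difference, so these counts describe the called probe sets and test nothing.

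**Figure D5:**
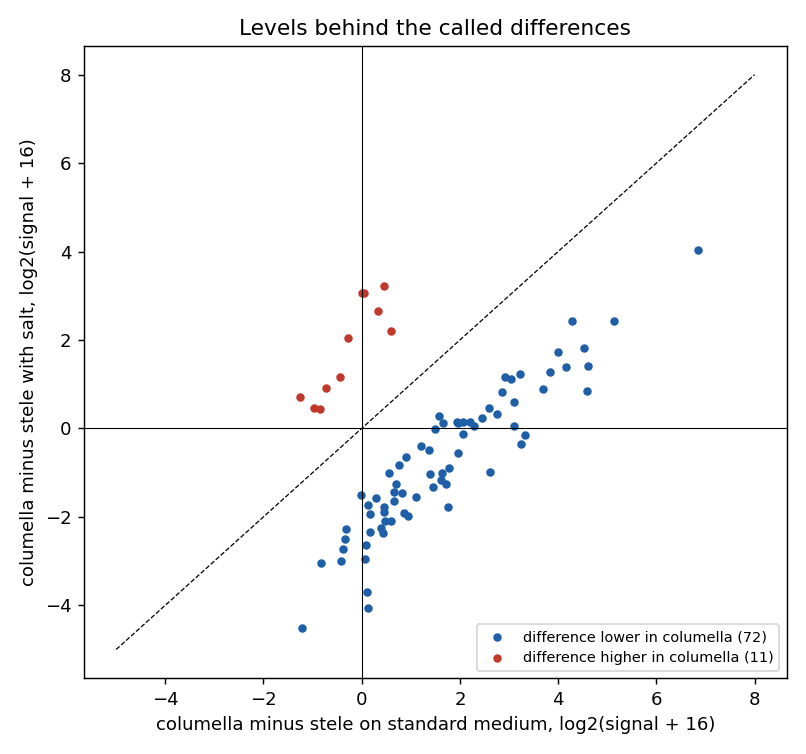
Columella minus stele level, log2(signal + 16), on standard medium (x axis) against salt (y axis) for the 83 probe sets with a called difference; on the dashed line the gap is equal on both media. The 72 blue points lie below the line and mostly right of 0, with 44 called higher in columella on standard medium, and the 11 red points lie above it.

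Gene families were described by their counts, to be read against the shares of all probe sets, of which 3.76% rose and 6.16% fell in columella and 8.54% rose and 10.4% fell in stele. Of 12 LEA, dehydrin and COR genes measured, 4 rose in columella (33.3%) and 6 in stele (50%), 3 of them in both. Their median change was 0.61 in columella and 0.81 in stele, against -0.20 and -0.23 for all probe sets. The difference was called for 0 of the 12 in limma, and 2 had an unadjusted p under 0.05. LEA18 rose in stele by 1.95 (adjusted p = 0.00129) and changed by 0.54 in columella (adjusted p = 0.410), with a difference of -1.40 that was not called. Of 10 autophagy genes, 2 rose in columella (20%) and 4 in stele (40%), 2 of them in both. These 2 encode the ATG8 proteins that coat the forming autophagosome, ATG8H (1.89 in columella and 2.33 in stele) and ATG8E (1.40 and 2.00).

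Among 47 UDP-glucosyltransferase genes, whose enzymes attach sugar to hormones and other small molecules, 5 rose in columella (10.6%) and 9 in stele (19.1%), and all 5 columella rises were shared. In columella 0 fell, and in stele 2 did (4.26%, against 10.4% of all probe sets). UGT73C7 rose by 2.19 in columella and 2.15 in stele, and UGT73B4 by 1.80 and 3.33. UGT87A2 rose by 1.33 and 2.65. For 0 of the 47 was the difference called in limma, with 11 at an unadjusted p under 0.05. UGT76B1 had stele signals of 94.5, 80.7 and 328, then 1430, 1380 and 1516, and columella signals of 314, 203 and 402, then 473, 566 and 1200. It rose in stele by 3.24 (adjusted p = 2.62e-05) and changed by 1.17 in columella (0.114), and its difference of -2.06 was not called with all arrays (adjusted p = 0.204). Without replicate 3 of every group the difference was called (-2.79, adjusted p = 0.0021), as was the columella rise (0.99, adjusted p = 0.0418), and the difference was also called in 1 of the 12 refits without 1 array. The refit without replicate 3 called 4 of the 47 lower in columella, beside 4.48% of all probe sets. UGT73B4 was also one of these, at -2.03 (limma adjusted p = 0.00148).

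The auxin list had a lower median in columella than in stele. Of its 13 genes, 5 rose in stele (38.5%), namely LBD16, LBD29, GH3.3, IAA29 and IAA30, and 1 fell (7.69%). In columella 0 rose and 1 fell (7.69%), with 4 at an unadjusted p under 0.05 in limma. Of all probe sets 8.54% rose and 10.4% fell in stele, and 3.76% rose and 6.16% fell in columella. The median change was -0.44 in columella and 0.27 in stele, with a median difference of -0.74 against 0.01 for all probe sets. One member, LBD16, had a called difference, beside 0.317% of all probe sets called lower in columella. Without replicate 3 of every group there were 5 (LBD16, LBD29, GH3.3, GH3.17 and IAA29) and also 5 falls in columella. In that refit 4.48% of all probe sets had a difference called lower in columella, and 18.5% fell in columella. GH3.17, a second auxin-conjugating enzyme, had columella signals of 3749, 3915 and 3374 on standard medium and 354, 238 and 407 with salt. In stele it had 74.1, 36.8 and 236, then 42.6, 59.3 and 185. Columella separated fully, replicate 3 included, and stele overlapped. The fall was -3.43 in columella (limma adjusted p = 0.000239) and the change was -0.14 in stele (0.884), and the difference of -3.29 missed the threshold (adjusted p = 0.0623). After quantile normalization the difference was called, at -3.6 (limma adjusted p = 0.0226). WES1 belongs to the same enzyme family, but its symbol is not matched by the list. IAA29, a repressor of auxin responses, rose in stele by 1.69 and changed by -0.25 in columella.

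Of 15 stress transcription factor genes, 6 rose (40%) and 1 fell (6.67%) in stele, where 8.54% and 10.4% of all probe sets did. In columella 0 rose and 2 fell in limma (13.3%, against 6.16% of all probe sets), and 4 had an unadjusted p under 0.05. WRKY22 and WRKY53 had called differences, both lower in columella, beside 0.317% of all probe sets called lower. Without replicate 3 of every group STZ and WRKY6 joined them, and 5 of the list fell in columella. In that refit 4.48% of all probe sets had a difference called lower in columella, and 18.5% fell in columella. STZ, a zinc finger repressor of the abiotic stress response, had columella signals of 9879, 5075 and 4097, then 5248, 3643 and 3779, and stele signals of 1068, 828 and 2228, then 3542, 3638 and 3245. It rose in stele by 1.46 (adjusted p = 0.004) to just under the range of columella with salt, and its difference was -1.96 (adjusted p = 0.069). That difference was called after quantile normalization, at -2.19 (limma adjusted p = 0.00699). NAC014 fell in both, by -1.17 in columella and -1.06 in stele.

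Calcium sensors of the calmodulin-like family had 7 genes measured. With all arrays 3 rose in stele (42.9%, against 8.54% of all probe sets). In columella 0 rose, against 3.76% of all probe sets, and 3 had an unadjusted p under 0.05 in limma. Without replicate 3 of every group CML37 and CML38 rose in columella too, by 1.27 and 1.73 (limma adjusted p = 0.00767 and 0.00202). CML37 had columella signals of 1551, 964 and 1562, then 3129, 2823 and 2262, and stele signals of 47.5, 70.6 and 404, then 1345, 1755 and 1180. Both populations separated, with columella above stele on each medium. The change was 3.43 in stele (adjusted p = 7.83e-06) and 1.02 in columella (0.156), and the difference of -2.41 had an adjusted p of 0.0973. After quantile normalization that difference was -2.73 and was called (limma adjusted p = 0.049). The difference was called without replicate 3 of every group for CML37, CML38 and CML23, at -3.12, -2.31 and -2.00. In that refit 8.28% of all probe sets rose in columella, and 4.48% had a difference called lower in columella. Of 14 glutathione transferase genes, whose enzymes detoxify reactive compounds, 3 rose in stele (21.4%) and 0 in columella (3 at an unadjusted p under 0.05 in limma). In each population 1 fell (7.14%), against 6.16% of all probe sets in columella and 10.4% in stele. The columella fall was that of GSTU27, by -1.69 (limma adjusted p = 0.0343). GSTU22 and GSTU25 rose in stele by 3.30 and 2.39 and changed by 1.06 and 0.78 in columella (adjusted p = 0.132 and 0.124). Without replicate 3 of every group both also rose in columella, by 0.99 and 0.89 (limma adjusted p = 0.00849 and 0.00955). Their differences were called lower in columella in that refit, at -3.19 and -2.03 (limma adjusted p = 4.8e-05 and 0.00124). With all arrays these differences were -2.24 and -1.61 and were not called (0.123 and 0.117).

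Calls in the wall, transport and housekeeping families are to be read against the same shares of all probe sets (3.76% and 6.16% in columella, 8.54% and 10.4% in stele). Of 18 expansin genes, whose products loosen the wall, 2 fell in columella (11.1%), while 3 rose and 3 fell in stele (16.7% each). Of these, 1 fell in both, EXPA4 (-2.81 and -1.28). EXPA15 fell by -2.12 in columella and changed by -0.46 in stele (adjusted p = 0.387). Of 9 xyloglucan endotransglucosylase genes, 1 rose (11.1%) and 3 fell (33.3%) in stele, and XTH20 had the only called difference. Of 30 cellulose synthase and wall acetylation genes, 1 rose and 1 fell in columella (3.33% each) and 3 fell in stele (10%), close to those shares or below them. Of 18 sugar transporter genes, 1 fell in columella (5.56%), and 3 rose (16.7%) and 1 fell (5.56%) in stele. Among the stele rises were SWEET2 (1.48) and the vacuolar transporter gene TMT2 (1.10). Of 6 ion transport genes, the cation exchanger genes CHX20 and CHX6B changed in columella, by 1.64 and -1.20. CHX20 changed by 1.37 in stele with an adjusted p of 0.0633, and its difference of 0.26 was not called. The 69 plastid-encoded probe sets had 0 calls in either response and for the difference in limma. At an unadjusted p under 0.05 there were 2, 1 and 0. Without replicate 3 of every group 8 of them rose in columella, and 2 rose and 1 fell in stele. In that refit 8.28% of all probe sets rose in columella, and 12.6% rose and 18.7% fell in stele. The list matched by the letters CYP had 26 genes, of which CYP59 and CYP78A9 rose in columella, by 1.47 and 1.48 (7.69%). CYP718 fell in columella by -2.63 and CYP71 fell in stele by -0.89 (3.85% each, limma adjusted p = 0.00967 and 0.0111). CYP78A9 is a cytochrome P450 gene and CYP59 encodes a cyclophilin with an RNA-binding domain, so the match mixed 2 families.

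The enzyme gene CCR2, cinnamoyl-CoA reductase of lignin precursor synthesis, had one of the larger uncalled differences. Its stele signals were 7.39, 7.33 and 133, then 931, 1139 and 531, and its columella signals were 3.98, 3.03 and 23.3, then 45.8, 62.8 and 41.1. Salt and standard arrays separated in both. The change was 4.28 in stele (limma adjusted p = 2.4e-06) and 1.41 in columella (0.0892). The difference of -2.88 had an adjusted p of 0.0838, and of 0.000544 without replicate 3 of every group.

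The same genes were then read in the other populations, each of which has its own standard arrays in the same limma fit. Of the 35 genes lower in columella, 21 rose and 0 fell in cortex, where 22.9% of all probe sets rose and 12% fell. In epidermis 14 rose and 1 fell, against 11.7% and 9.37% of all probe sets. In protophloem 9 rose and 4 fell, against 8.76% and 10.5%, and in endodermis 1 rose and 1 fell, against 1.1% and 0.708%. PUB19, for example, rose by 3.19 in epidermis, 2.00 in cortex and 1.71 in protophloem. The same difference of responses taken between each of the 15 pairs of populations gave 83 calls for columella and stele, 20 for columella and endodermis (0.0879%) and 27 for endodermis and stele (0.119%). It gave 8090 for cortex and protophloem (35.6%). Pairs share populations and differ in the spread of their arrays, so the counts were not ranked by a test.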

How the data were processed

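Transcript levels were measured on 36 ATH1 arrays, 12 of them of columella and stele. The authors deposited linear MAS5 intensities with a single value for each probe set on each array; MAS5 is named in the submitters' processing notes, and its version is not given in the sources used here. All arrays have one trimmed mean in these files, so a general shift of levels is not visible. Of 22810 probe sets, 64 controls were left out; 13513 had exactly 1 gene, 503 several and 8730 none in the platform annotation, updated through RefSeq of assembly TAIR10.1. Sequences were not analysed here.

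On log2(signal + 16), which understates changes of low signals, limma 3.58.1 (R 4.3.3; lmFit, eBayes with trend) fitted 12 group means to all 36 arrays with 24 residual degrees of freedom. Calls are at a Benjamini-Hochberg adjusted p under 0.05 over all 22746 probe sets, two-sided, with no filter on low values; ± is the SE of the fit unless marked SD. The code was tested on simulated data. Named were, among probe sets with 1 gene, the 12 largest called differences each way (6 existed upwards), the 10 largest shared rises and 8 largest shared falls by their smaller change, up to 5 opposite changes each way, and members of each family by adjusted p; the rest of the 41 genes, and GH3.3, LBD29, IAA30, WRKY6 and 2 unnamed probe sets, were added after their values were seen. Families were matched by symbol patterns in 30 lists, of which 19 had 3 or more genes. The populations, genes and lists were chosen with earlier results of these data known. Tables and figures used Python 3.11.15, pandas 2.3.3, numpy 2.4.6 and matplotlib 3.10.9.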

Additional observations from a re-analysis of the deposited data

Results flagged for a closer look

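For 41 genes the test of the difference itself separated the salt responses of columella and stele in limma (adjusted p under 0.05 over 22746 probe sets, of which 0.365% were called); values are columella change minus stele change on the log2 scale. The difference was negative for 35 of them. The most negative were AT3G53980 (-4.20), AT4G33420 (-3.80), WRKY22 (-3.47), AT1G50720 (-3.20), AT5G43180 (-3.02), AT1G48070 (-2.83), LBD16 (-2.81), WES1 (-2.77), AT5G18470 (-2.72), AT5G60630 (-2.70), WRKY53 (-2.66) and AT1G55240 (-2.65). A middle group held AT5G14700 (-2.57), PUB19 (-2.43), AT4G18340 (-2.41), AT1G03820 (-2.36), ATL63 (-2.28), LCR69 (-2.23), AT3G63240 (-2.22), AT3G15760 (-2.19), XTH20 (-2.18), AT4G26790 (-2.14), AT1G11330 (-2.11) and AT5G26200 (-2.07). The least negative were AT5G14730 (-2.02), AT4G11350 (-1.93), AT1G61890 (-1.93), TRM24 (-1.87), AT2G18670 (-1.86), AT5G48130 (-1.84), AT1G53035 (-1.80), AT5G46710 (-1.58), AT2G03240 (-1.55), AT2G14520 (-1.48) and AT4G38900 (-1.28). Positive differences were found for ICL (3.05), AT5G57300 (1.96), AT2G04580 (1.65), AT1G23910 (1.61), AT4G14930 (1.59) and AT3G19910 (1.44). A sign common to the 3 replicate numbers was seen in 41 of the 41, on the arrays that also chose them. On standard medium 44 of the 72 probe sets with a negative difference were called higher in columella.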

How the results depend on the processing

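Counts of calls depended on the settings. Of the 156 named probe sets 45 had a called difference, and 0 of these changed its sign under any setting. Without replicate 1 or 2 of every group, 0 and 2 of the 45 kept the call, and 12 did with the spread of the 12 arrays alone. Of the 83 differences, 75 were called after quantile normalization (24 higher and 137 lower in columella in all), 79 with an offset of 64 (33 and 145), 51 with an offset of 4 (7 and 45), 78 after a filter on low values (104 in all), 18 with the spread of the 12 arrays alone (5 and 15) and 83 with the GAPDH ratio as a covariate (18 and 139). With the replicate number as a block the counts were 19 and 152, with all 83 kept. Same-numbered arrays deviated from their group means with correlations of -0.06 to 0.42, and 8 of 12 arrays correlated best with their own number, a hint from the data and not from the labels. Quantile normalization left 709 falls in columella and 265 shared falls. The 12 arrays alone gave 396 rises and 494 falls in columella, 1528 falls in stele, 274 shared rises, 151 shared falls and 2 opposite changes.

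Without 1 array at a time, the higher differences ranged from 6 to 97 and the lower from 16 to 426; the fewest came without columella standard replicate 1 (23 in all) and the most without stele standard replicate 3 (523). Over the same refits columella rises ranged from 303 to 1357, columella falls from 284 to 2448, stele rises from 1176 to 2372, stele falls from 789 to 3422, shared rises from 239 to 815, shared falls from 128 to 810 and opposite changes from 1 to 33. Each array of replicates 1 and 2 other than columella standard replicate 2 lowered the 83 to 45 or fewer when left out, and columella salt replicate 3 raised it to 323.

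Without replicate 1, 2 or 3 of every group, chosen after the values were seen, the higher differences were 0, 2 and 296 and the lower 0, 0 and 1018. Columella rises were 59, 48 and 1884, columella falls 38, 22 and 4212, stele rises 404, 222 and 2869, stele falls 89, 45 and 4244. Shared rises were 37, 23 and 1248, shared falls 4, 1 and 1915, and opposite changes 0, 0 and 145. The cause was not tested. Genes with signals under the 40th percentile, such as ICL on standard medium, have folds set by the offset.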
